A study of Mus musculus with 42 samples.

Results

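Soleus muscle of young male mice without calpain 3 (C3KO) was compared with soleus of young wild-type (wt) mice on Affymetrix mouse expression arrays. The members are the soleus arrays of C3KO mice J4-1, J4-2 and H4-1 and of wt mice F4-1, F4-2, F4-3 and F4-4, which is 7 of the 42 arrays of the series. They were chosen by genotype, muscle and age as the titles give them. The soleus array of a further young C3KO mouse, H4-2, was left out because it carried strong liver transcripts, and its values are given beside the results. The series also holds adult soleus (6 C3KO and 5 wt arrays), young quadriceps (4 C3KO, H4-2 included, and 4 wt) and adult quadriceps, and 2 arrays of 1 mouse had no group because their labels name different muscles. Young mice were 2 to 3 months old and adults 11 to 12 months old. Both genotypes carry the strain label 129 SvEvBrd x C57BL/6 heterozygotes, all mice were male, and no treatment is named. C3KO mice lack calpain 3 from the germ line in every tissue, and the labels do not say which part of the gene was removed. All young wt mice carry the prefix F4 and the young C3KO mice the prefixes J4 and H4, so that prefix and genotype cannot be told apart.

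Calpain 3 is a calcium-dependent cysteine protease made mainly in skeletal muscle, where it binds the giant sarcomere protein titin. Its loss causes limb girdle muscular dystrophy in people, and C3KO mice have a mild form of the disease. Soleus is a postural calf muscle rich in slow fibres, while quadriceps is mainly fast. The comparison addresses which transcripts differ between the genotypes in the slow muscle of young animals.

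Each array gives a log2 level per probe set, so a difference of 1 is a 2-fold change, and a level is compared only between arrays and not between genes. The medians of the 7 arrays lay between 4.38 and 4.44. Pearson correlations across probe sets were 0.985 to 0.988 within C3KO, 0.985 to 0.990 within wt and 0.979 to 0.989 between genotypes. Slow fibre genes marked the tissue as soleus: their mean minus that of fast fibre genes lay between -1.48 and -0.11 on the 7 soleus arrays and between -6.96 and -4.99 on the quadriceps arrays of the same mice. On the soleus array of H4-2 that difference was -2.86 and the median of the liver markers was 11.95, against 3.75 to 3.98 on the other young C3KO soleus arrays. The 3' minus 5' difference of the actin control probe sets, a measure of RNA integrity and labelling, was 0.143 ± 0.0554 (SD, n = 3) in C3KO and 0.367 ± 0.138 (SD, n = 4) in wt. The part of this difference in the results was not tested beyond a fit with it as a covariate, which is given where it ended a call.

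Capn3 itself, the targeted gene, stood at 4.33, 4.71 and 4.34 in C3KO mice J4-1, J4-2 and H4-1. In wt mice F4-1 to F4-4 it stood at 10.34, 10.14, 10.09 and 10.36. The groups lay far apart, and 2 of the 3 C3KO levels were at or under the median of their array, so the change is a lower bound. The fitted change was -5.77 ± 0.15 on the log2 scale (SE; limma, adjusted p = 2.084e-15), and a second probe set of the gene changed by -6.30. The change was -5.80 in adult soleus and -5.81 in young quadriceps, and H4-2 soleus stood at 3.67. Capn3 thus matched the labelled genotype on each of these arrays.

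Of 11636 genes tested, 38 passed an adjusted p of 0.05 in young soleus, which is 0.327% of them, with 12 higher (0.103%) and 26 lower (0.223%) in C3KO. The split depended on scaling: with each array centred on its median, 15 of 35 were higher (42.9%), against 31.6% as deposited. All genes tested had a median change of -0.04, with a 10th percentile of -0.29 and a 90th of 0.18. At an unadjusted p under 0.05 stood 1163 of the 11636 genes, the share to set beside each such list count below. Of the 38, 21 changed more than 2-fold. For all 38 the 3 C3KO levels and the 4 wt levels did not overlap, as was so for 11% of all genes tested. The count rested partly on single mice, being 23 without H4-1 and 25 without F4-1. One predicted gene among the 38 is counted and not named.

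**Figure D1:**
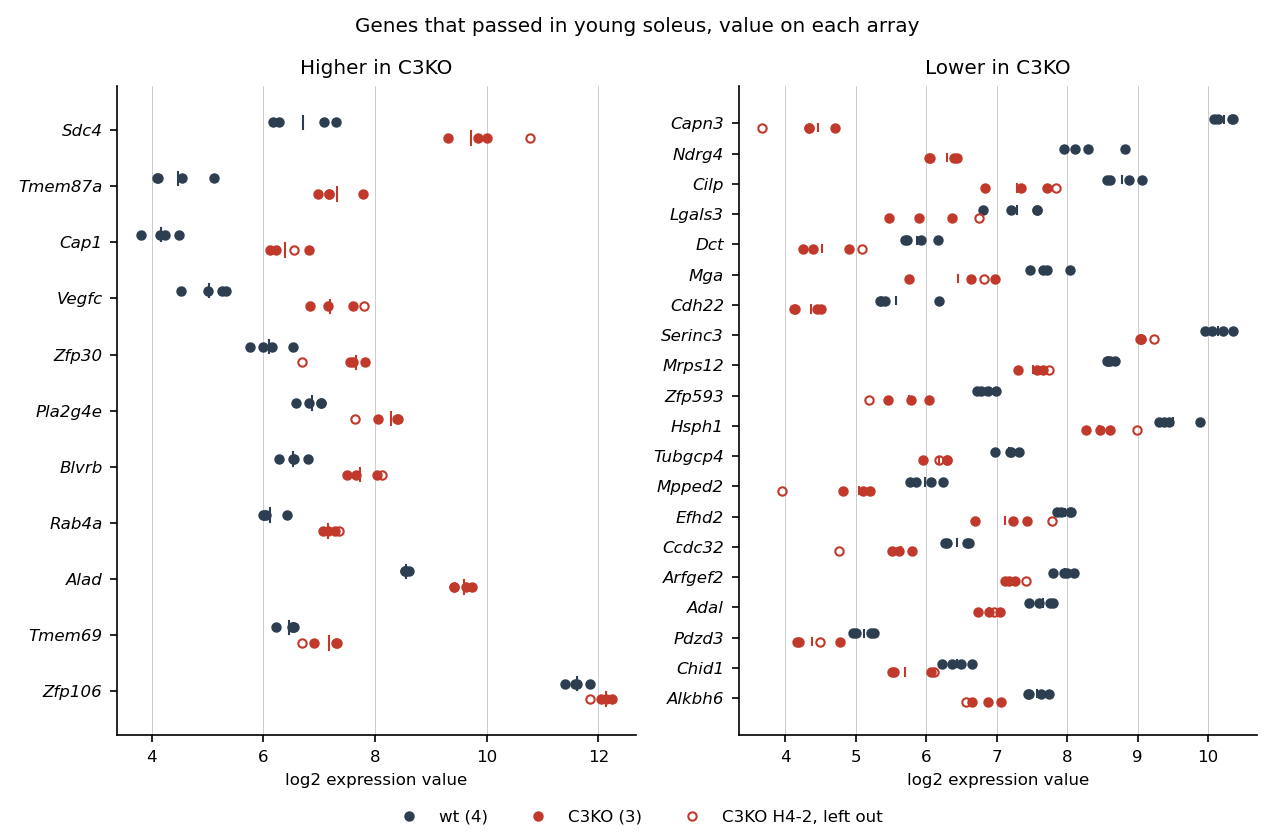
Log2 level on each array, for the 11 named genes that rose and the 20 largest named falls in young C3KO soleus, with 4 dark points for wt, 3 red points for C3KO, a hollow red point for the left-out H4-2 array and ticks at the group means. The red and dark points do not overlap for any gene shown, and Capn3 has the widest gap.

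No other calpain and no calpain 3 partner tested passed. In a list of 8 tested genes of the calpain system, which holds the ubiquitous calpains, their small subunit and the inhibitor calpastatin, none passed, 6 changes were negative and the median change was -0.10. Capn2, the catalytic subunit of m-calpain, had a change of -0.22 ± 0.12 (SE; limma, adjusted p = 0.567). Of 16 tested partners and reported substrates none passed either, with a median of -0.01. At an unadjusted p under 0.05 stood 1163 of all 11636 genes and 2 of the 16 partners, both lower. Of these, Ankrd1, a stress-responsive ankyrin repeat protein of the titin complex, had a change of -0.76 ± 0.27 (SE; limma, adjusted p = 0.326). Tln1, the integrin-binding adaptor talin, had -0.34 ± 0.14 (SE; limma, adjusted p = 0.431).

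Among the genes that rose in young C3KO soleus, several rose in adult C3KO soleus too, on arrays that share no mouse with the young ones. Both comparisons come from the same fit with a shared estimate of spread, so their calls are not fully independent. Without Capn3, 11 of the 37 young soleus genes also passed in adults, all in the same direction, which is 29.7% of the young genes and 25.6% of the 43 adult genes (0.378% of all genes tested passed in adult soleus with Capn3). The rises among them were Tmem87a, Cap1, Pla2g4e, Alad, Tmem69 and Zfp106.

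Tmem87a, a membrane protein of the Golgi, stood at 6.99, 7.78 and 7.18 in the C3KO mice and at 4.11, 4.09, 5.11 and 4.55 in wt. Every C3KO level was above every wt level, and 2 of the 4 wt levels were at or under the array median. The change was 2.85 ± 0.27 (SE; limma, adjusted p = 1.087e-05), or 7.19-fold, with 2.41 in adults and 3.40 in young quadriceps. Cap1, a regulator of actin filament turnover, stood at 6.11, 6.22 and 6.81 in C3KO and at 3.80, 4.24, 4.15 and 4.49 in wt, where 3 of 4 levels were at or under the array median. Its change of 2.21 ± 0.28 (SE; limma, adjusted p = 0.0003677) stood beside 2.33 in adults and 1.84 in young quadriceps.

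Pla2g4e encodes a calcium-dependent cytosolic phospholipase. Its levels were 8.39, 8.40 and 8.06 in C3KO and 7.04, 6.59, 7.03 and 6.82 in wt, a 2.67-fold rise of 1.42 ± 0.21 (SE; limma, adjusted p = 0.001962). The rise was 1.203 in adult soleus and 1.37 in young quadriceps. Alad, the enzyme of the second step of haem synthesis, stood at 9.73, 9.41 and 9.62 in C3KO and within 8.53 to 8.61 in all 4 wt mice. Its change was 1.03 ± 0.13 (SE; limma, adjusted p = 0.0005278) in young and 1.07 (adjusted p = 1.319e-05) in adult soleus. In young quadriceps Alad did not pass (0.62, limma adjusted p = 0.1139), and the difference between the muscles did not pass either.

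Zfp106, a zinc finger RNA-binding protein whose loss causes neuromuscular degeneration in mice, stood at 12.05, 12.24 and 12.13 in C3KO and at 11.61, 11.59, 11.86 and 11.41 in wt. The change was small, 0.53 ± 0.11 (SE; limma, adjusted p = 0.02832), and equal in size in adults (0.54). It lost its call in 6 of the 7 fits without a mouse, where the adjusted p reached 0.158, and with the actin covariate (0.124). Tmem69, a membrane protein, rose by 0.73 ± 0.13 (SE; limma, adjusted p = 0.009875), beside 0.75 in adults and 0.75 in young quadriceps. Its 3 other probe sets gave 0.01, -0.40 and -0.52, and without J4-2 or H4-1 its adjusted p reached 0.115.

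The other 5 named rises belong to genes whose young wt levels all lay below every adult wt soleus level, namely Sdc4, Vegfc, Zfp30, Blvrb and Rab4a. Sdc4 (syndecan 4), a cell-surface heparan sulphate proteoglycan of focal adhesions and satellite cells, had the largest rise of the 12. It stood at 9.999, 9.84 and 9.31 in C3KO and at 6.28, 7.29, 6.17 and 7.09 in wt, and H4-2 stood at 10.77. The change was 3.01 ± 0.31 (SE; limma, adjusted p = 2.778e-05), or 8.05-fold. Young quadriceps gave 2.92 (2.82 without H4-2), while adult soleus gave 0.93 (adjusted p = 0.114) with adult wt levels of 8.54 to 9.26. A second, dimmer Sdc4 probe set moved the other way, from 6.74 in wt to 5.02 in C3KO, a change of -1.72. With the probe sets averaged the change was 0.65 and did not pass (limma, adjusted p = 0.494), so the direction for Sdc4 rests on which probe set is read. Of 16 tested syndecan and heparan sulphate genes, Sdc4 alone passed and the median was -0.08, a sign that turned under median centring (0.01). Sulf1, an enzyme that trims heparan sulphate, had a change of -0.48 (limma, adjusted p = 0.481).

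Vegfc, the main growth factor of lymphatic vessels, showed the same contrast of ages. Its levels were 7.15, 7.60 and 6.84 in C3KO and 4.52, 5.01, 5.25 and 5.32 in wt, a change of 2.18 ± 0.23 (SE; limma, adjusted p = 3.03e-05). In adult soleus the change was -0.29, and the adult wt levels of 6.75 to 7.15 lay near the young C3KO levels. Young quadriceps gave 2.73. The other probe sets of Vegfc changed by 0.56 and 0.10, and their mean with the first gave 0.94 (limma, adjusted p = 0.03075). Of 13 tested genes of the VEGF and angiopoietin pathway Vegfc alone passed, with a list median of 0.06. Flt1, the VEGF-A receptor VEGFR1, had a change of -0.54 ± 0.23 (SE; limma, adjusted p = 0.452).

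Zfp30, a KRAB zinc finger protein, stood at 7.81, 7.56 and 7.60 in C3KO and at 5.75, 5.99, 6.53 and 6.15 in wt. It rose by 1.55 ± 0.22 (SE; limma, adjusted p = 0.001349) in young soleus and changed by -0.16 in adults, whose wt levels were 7.28 to 7.76. Blvrb, biliverdin reductase B, which acts on haem breakdown products, stood at 7.49, 8.03 and 7.65 in C3KO and at 6.55, 6.53, 6.28 and 6.80 in wt. Its rise of 1.19 ± 0.20 (SE; limma, adjusted p = 0.005494) stood beside -0.06 in adults, with adult wt levels of 6.95 to 7.998. Rab4a, a GTPase of endosome recycling, stood at 7.15, 7.28 and 7.06 in C3KO and at 6.00, 6.00, 6.42 and 6.05 in wt, a change of 1.04 ± 0.17 (SE; limma, adjusted p = 0.003154). Its difference between ages, 0.84, did not pass (adjusted p = 0.09237). With Alad and Blvrb, 2 of 16 tested haem synthesis and breakdown genes rose, while 12 of the 16 changes were negative and the median was -0.12. Hmox1, the inducible haem oxygenase, had a change of -0.30 ± 0.13 (SE; limma, adjusted p = 0.443).

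**Figure D2:**
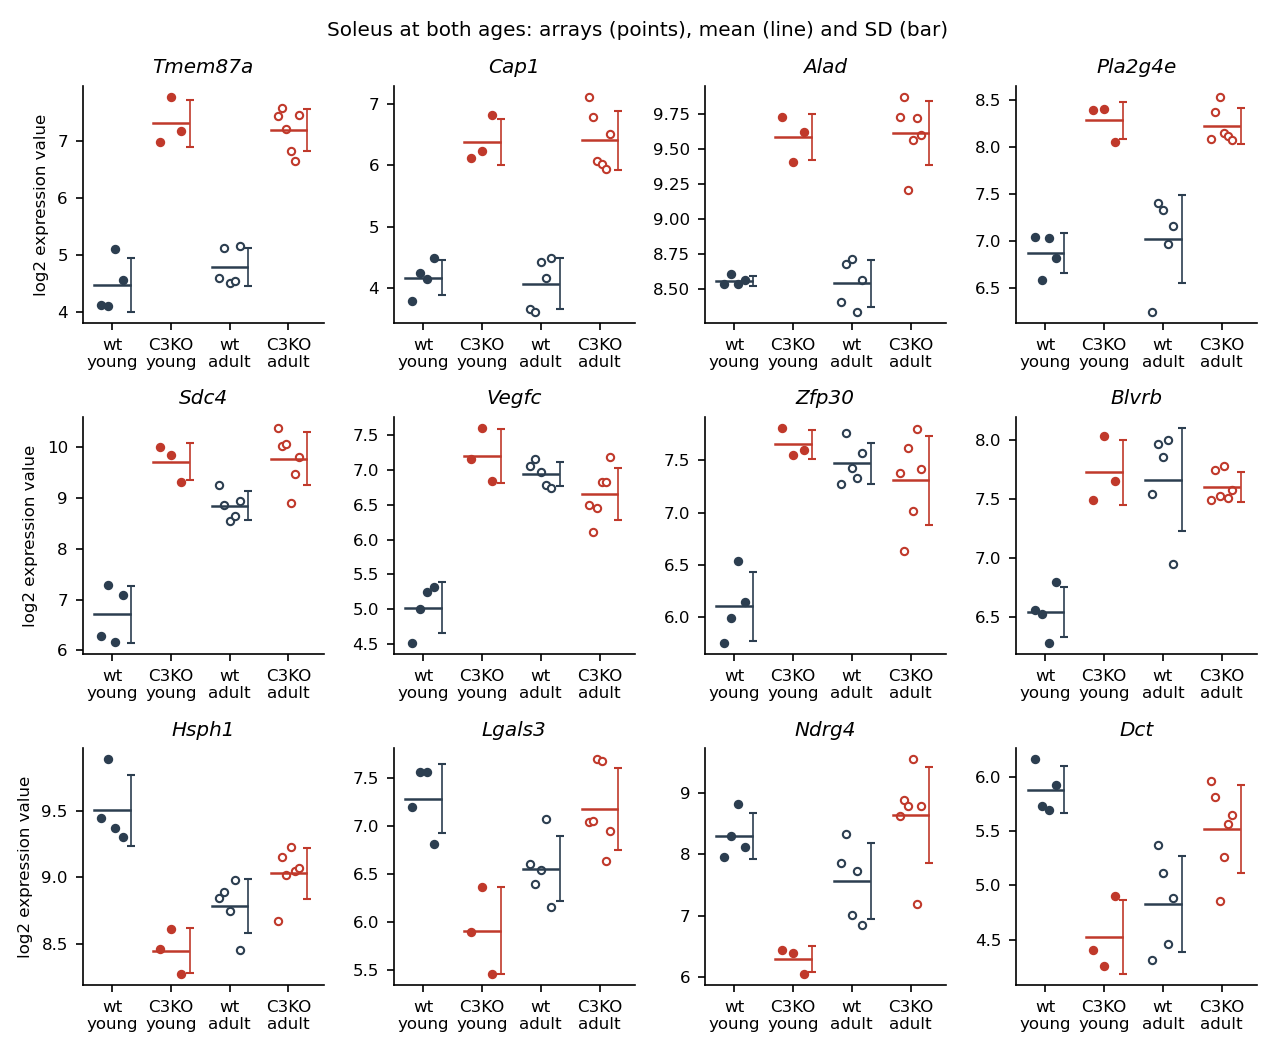
Log2 level of 12 genes in the 4 soleus groups, with a point per array, a line at the mean and a bar of 1 SD, young filled and adult open. Tmem87a, Cap1, Alad and Pla2g4e differ between genotypes at both ages, whereas for Vegfc, Zfp30 and Blvrb the young wt group stands below the other groups.

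Genes that fell in young C3KO soleus were led, after Capn3, by Ndrg4, a cytoplasmic protein of heart and nerve. It stood at 6.44, 6.40 and 6.05 in C3KO and at 7.96, 8.29, 8.82 and 8.11 in wt, a 4.00-fold fall (-2.001 ± 0.40 SE; limma, adjusted p = 0.02832). Adult soleus gave 1.07 and young quadriceps 0.00. The call was lost when any 1 of the 7 mice was left out, with adjusted p up to 0.212, and with the actin covariate (0.135).

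Cilp, a secreted protein of cartilage and tendon, stood at 7.71, 7.34 and 6.83 in C3KO and at 8.60, 8.89, 9.06 and 8.57 in wt. Its change was -1.49 ± 0.30 (SE; limma, adjusted p = 0.03141), and it was lost in 6 fits without a mouse (adjusted p up to 0.31) and with the actin covariate (0.216). Lgals3, the galectin of activated macrophages, stood at 5.90, 6.37 and 5.47 in C3KO and at 7.20, 7.57, 7.57 and 6.81 in wt. Its change was -1.38 ± 0.27 (SE; limma, adjusted p = 0.02248), lost in 5 such fits (up to 0.23), with the actin covariate (0.167) and with H4-2 kept (0.0696). Dct, an enzyme of melanin synthesis, stood at 4.40, 4.26 and 4.90 in C3KO, of which 2 were at or under the array median, and at 6.17, 5.73, 5.70 and 5.93 in wt. Its change was -1.36 ± 0.25 (SE; limma, adjusted p = 0.01662), and its adjusted p reached 0.0994 without a mouse, the call being lost without J4-1, J4-2, F4-1 or F4-4. Cdh22, a cadherin, had levels of 4.15, 4.45 and 4.504 in C3KO and of 6.19, 5.36, 5.35 and 5.42 in wt, a change of -1.21 ± 0.21 (SE; limma, adjusted p = 0.005952) that was lost without J4-1 (0.0592).

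Serinc3, a membrane protein that takes part in serine incorporation into lipids, was tight within groups. It stood at 9.03, 9.06 and 9.06 in C3KO and at 10.21, 10.36, 10.06 and 9.95 in wt. The fall was -1.10 ± 0.14 (SE; limma, adjusted p = 0.0003573), beside -0.45 (adjusted p = 0.07994) in adults and -1.55 in young quadriceps. Other probe sets of Serinc3 gave changes from -1.66 to 0.08, the latter from a probe set above the array median on all 7 arrays. Mrps12, a mitochondrial ribosomal protein, stood at 7.66, 7.57 and 7.31 in C3KO and within 8.56 to 8.68 in wt. It fell in young soleus by 1.09 on the log2 scale (limma, adjusted p = 0.003545) and in young quadriceps by 0.84, while adult soleus gave 0.08. Zfp593, a zinc finger protein, stood at 5.79, 6.04 and 5.46 in C3KO and at 6.88, 6.73, 6.78 and 6.99 in wt, a change of -1.08 ± 0.14 (SE; limma, adjusted p = 0.0006783).

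Besides Capn3, the genes that fell at both ages were Mga, Mpped2, Ccdc32, Adal and Ndufaf1. Mga, a DNA-binding partner of Max, stood at 6.98, 6.64 and 5.75 in C3KO and at 8.05, 7.48, 7.71 and 7.65 in wt. Its change was -1.27 in young (limma, adjusted p = 0.01583) and -1.07 in adult soleus, a second probe set gave -0.05, and the call was lost without F4-1 or H4-1 (up to 0.156). Mpped2, a metallophosphoesterase, changed by -0.94 and -0.83 in young and adult soleus, with -0.51 (limma, adjusted p = 0.317) in young soleus when probe sets were averaged. Adal, an adenosine-deaminase-like enzyme, changed by -0.76 and -0.61, with -0.46 (limma, adjusted p = 0.166) in young soleus for averaged probe sets. Ccdc32, a coiled-coil protein, changed by -0.80 and -0.70 at the 2 ages.

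The remaining falls were between -0.99 and -0.70 among the 20 largest. They were Tubgcp4, a part of the gamma-tubulin ring (-0.99, limma adjusted p = 0.003071), Efhd2, a calcium-binding actin regulator (-0.84, 0.03383), and Arfgef2, an exchange factor for Arf GTPases (-0.78, 0.001962). They also held Pdzd3, a PDZ scaffold protein (-0.73, 0.04299), Chid1, a chitinase-like protein (-0.73, 0.0141), and Alkbh6, of the AlkB dioxygenase family (-0.70, 0.006403). Other probe sets of Tubgcp4 gave -0.63 and -0.09. Efhd2 and Pdzd3 each lost their calls in 6 fits without a mouse (adjusted p up to 0.34 and 0.357), Chid1 without J4-1, H4-1, F4-1 or F4-2 (up to 0.171) and Alkbh6 without H4-1 (0.099). The other 6 falls were smaller than the 20 largest and, except Abcg2, were named after their values were seen. These were Sec23b of the COPII vesicle coat (-0.70), Gmds of GDP-fucose synthesis (-0.68), Ndufaf1, an assembly factor of complex I (-0.61), the transporter Abcg2 (-0.57), the lysosomal protease Ctsa (-0.52) and Plekhj1 (-0.48). Each of the 6 lost its call without H4-1, Ndufaf1 at an adjusted p of 0.05086 and the others at up to 0.3573. Ndufaf1 lost it in that fit alone. Of the 7 fits without a mouse, Sec23b and Gmds lost the call in 6, Abcg2 and Plekhj1 in 5 and Ctsa in 4. With H4-2 kept, Abcg2 changed by -0.18 (limma, adjusted p = 0.7465), Sec23b by -0.41 (0.4005) and Ctsa by -0.40 (0.1581), and Ctsa changed by -0.28 (0.1998) with probe sets averaged. With the actin covariate Gmds changed by -0.42 (0.1212).

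Young quadriceps, in which the quadriceps of H4-2 is included, showed some of these changes too. Of the 37 genes, 19 also passed there, against 0.834% of all genes tested, and 18 passed with H4-2 left out, against 0.567%. Among them were Sdc4, Vegfc, Tmem87a, Cap1, Pla2g4e, Blvrb, Zfp30, Serinc3, Mrps12 and Hsph1. Since the 7 mice of the soleus comparison gave both muscles, this is no independent repeat.

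Many of the changed genes lie on the chromosome of Capn3, chromosome 2, which held 15 of the other 37 (916 genes tested there, Capn3 included). Chromosome 7 held 6 of 910 tested, chromosome 4 held 5 of 721 and chromosome 8 held 3 of 612. Within 10 Mb of Capn3, 8 of 125 tested genes passed (6.4%), 3 higher and 5 lower, and within 20 Mb 9 of 203 (4.43%). Elsewhere 28 of 11383 genes with a position passed (0.246%). In adult soleus 10 of the same 125 genes passed (8%), and in young quadriceps 12. The 8 were Tmem87a, Pla2g4e, Zfp106, Mga, Adal, Tubgcp4, Ndufaf1 and Ccdc32, and all but Tubgcp4 passed in adult soleus, where its change was -0.54 (limma, adjusted p = 0.06648). Gene order is that of RefSeq on GRCm38.p6.

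**Figure D3:**
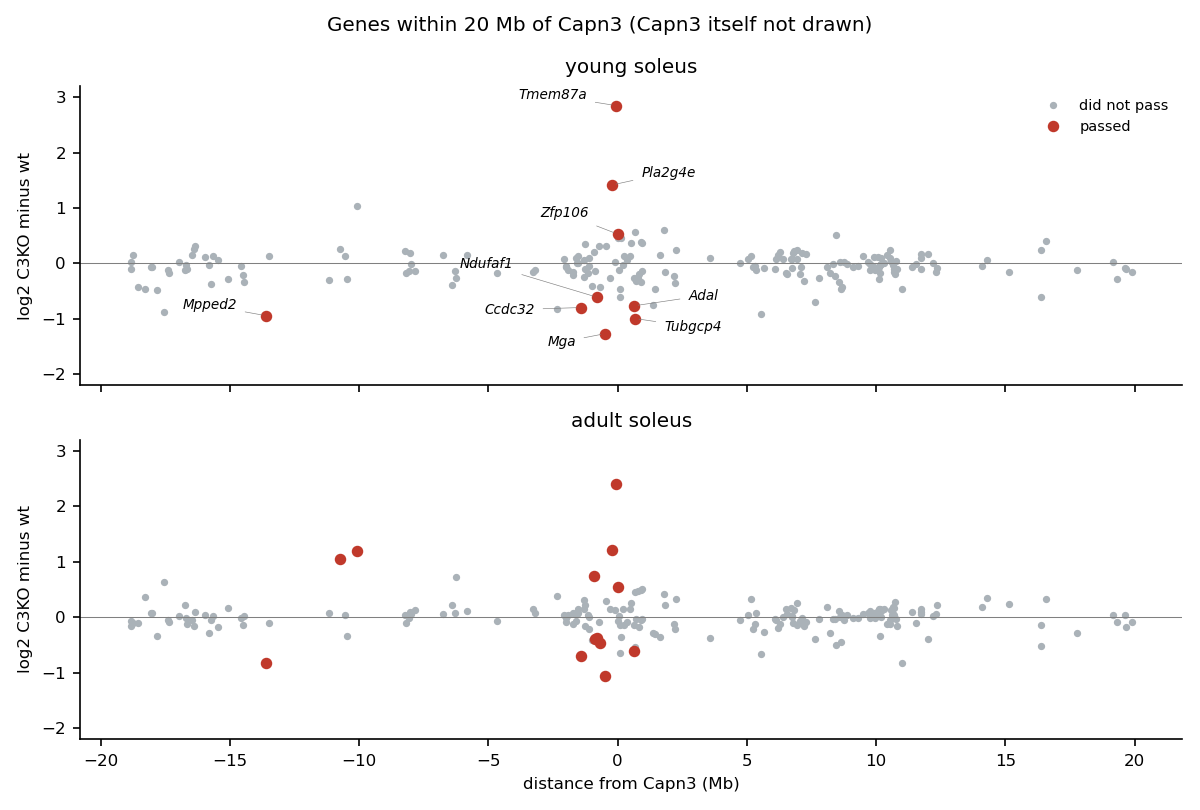
Log2 change (C3KO minus wt) of each tested gene against its distance from Capn3 in Mb, in young soleus (top) and adult soleus (bottom), with genes that passed in red and Capn3 not drawn. The red points gather near distance 0 at both ages and lie both above and below a change of 0.

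Joining passed genes at most 5 Mb apart gave 3 stretches, which held 19 of the 38. The first spans 2.16 Mb from Ccdc32 to Tubgcp4, includes Capn3 and held 9 passed genes of 36 tested (11 in adult soleus, 11 in young quadriceps). The second, also on chromosome 2, spans 3.22 Mb from Serinc3 to Arfgef2 and held Serinc3, Sdc4, Ctsa, Cdh22 and Arfgef2, or 5 of 41. In adult soleus 0 of those 41 passed and in young quadriceps 3. The third, on chromosome 7, spans 2.85 Mb from Blvrb to Alkbh6 and held 5 of 69, namely Blvrb, Mrps12, Zfp30, Alkbh6 and the predicted gene. There 0 passed in adult soleus and 6 in young quadriceps. The stretches were set by the calls, so their counts are a description. The counts of 0 are at the adjusted threshold of limma in adult soleus, where 1272 of all genes stood at an unadjusted p under 0.05. The part of strain-derived sequence around the knockout allele or elsewhere in these levels was not tested.

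Many heat shock proteins are chaperones induced together by heat shock factor 1, which binds repeated nGAAn units in their promoters. Hsph1, the Hsp110 chaperone, fell in young C3KO soleus and is described with the list below. The 150 bases before the start of Hsph1 and of Hspb1, the small chaperone Hsp27, are shown because their capitals mark a pair of facing or opposed nGAAn units. The motifs searched were GAANNTTC and TTCNNGAA, each its own reverse complement, so both strands are covered. The sequences are from RefSeq, build GRCm38.p6, for Hsph1 at chr5:149636337-149636486 on the minus strand and for Hspb1 at chr5:135887769-135887918 on the plus strand.
Hsph1: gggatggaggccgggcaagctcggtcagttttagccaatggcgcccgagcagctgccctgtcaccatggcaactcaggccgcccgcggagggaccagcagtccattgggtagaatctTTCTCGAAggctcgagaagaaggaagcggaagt
Hspb1: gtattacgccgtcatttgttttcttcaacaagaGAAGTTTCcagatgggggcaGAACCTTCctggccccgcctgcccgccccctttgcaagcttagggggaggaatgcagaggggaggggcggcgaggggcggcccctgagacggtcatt
In the 250 bases before the start, 11 of the 20 tested heat shock genes found in the table held a match (55%), against 3932 of 27025 genes (14.5%). The 11 are not all separate promoters. Hspa1a and Hspa1b held the same letters at the same distance. Hspd1 and Hspe1, on opposite strands of chromosome 1, held the same matches read from either strand. GAANNTTC was found before 7.73% of all genes and TTCNNGAA before 8.11%. A match is a match of letters only. In young soleus the changes of genes with a match ran from -1.05 (Hsph1) to 0.10 (Hspb3), with -0.001 for Hspd1. Hspa4l, Hsp90aa1, Dnajb1 and Chordc1, described below, were not among the 11. Whether a match goes with a change was not tested.

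Hsph1 stood at 8.47, 8.61 and 8.27 in C3KO and at 9.44, 9.89, 9.37 and 9.30 in wt, with no overlap. Its change was -1.05 ± 0.15 (SE; limma, adjusted p = 0.001871), and a second probe set gave -1.15. Young quadriceps gave -0.93 and adult soleus 0.25. Of 25 tested heat shock genes Hsph1 alone passed, 23 had a negative change, 8 stood at an unadjusted p under 0.05, all lower, and the list median was -0.21 against -0.04 for all genes. Hspa4l, a relative of Hsph1, stood at 5.52, 6.17 and 5.63 in C3KO and at 6.65, 6.61, 6.15 and 6.35 in wt, which overlap (-0.67 ± 0.17 SE; limma, adjusted p = 0.146). Hsp90aa1, the inducible Hsp90, stood at 9.55, 10.14 and 9.74 in C3KO and at 10.23, 10.86, 10.20 and 10.50 in wt (-0.64 ± 0.18 SE; limma, adjusted p = 0.196). Dnajb1, an Hsp40 co-chaperone, had a change of -0.83 (adjusted p = 0.330), Chordc1, an Hsp90 partner, -0.28 (0.406), and Hspb1, named for its promoter after its value was seen, -0.46 (0.406). The mean level of the list ran from 9.93 to 10.20 in C3KO and from 10.20 to 10.61 in wt, with H4-2 at 9.85. Its median was 0.08 in adult soleus and -0.47 in young quadriceps, and between -0.27 and -0.16 when a mouse was left out.

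The unfolded protein response of the endoplasmic reticulum gave a smaller shift. Of 15 tested genes none passed, 12 changes were negative and the median was -0.16.

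Immediate early genes, which are switched on within minutes of a stimulus, had lower levels in C3KO without any passing. Of 16 tested, 15 changes were negative and the median was -0.40, with -0.60 without F4-4, -0.24 without F4-1 and -0.72 with the actin covariate. The list's mean level was 7.83 in F4-1 and 7.77 in F4-2, but 7.10 in F4-3 and 7.07 in F4-4, and 6.83 to 6.97 in C3KO. Fos, a subunit of AP-1, stood at 6.97, 7.08 and 6.48 in C3KO and at 9.24, 9.01, 7.95 and 7.12 in wt, so the wt mice themselves spread widely (-1.48 ± 0.58 SE; limma, adjusted p = 0.393). Nr4a1, an orphan nuclear receptor, had a change of -1.02 ± 0.34 (SE; limma, adjusted p = 0.290) and Junb, another AP-1 subunit, of -0.81 ± 0.36 (SE; limma, adjusted p = 0.458). All 12 tested glucocorticoid targets had negative changes, with a median of -0.67, and 8 stood at an unadjusted p under 0.05, but none passed. Mt1, a metallothionein, stood at 8.59, 9.46 and 8.96 in C3KO and at 10.95, 11.36, 9.25 and 9.56 in wt, where F4-1 and F4-2 were high (limma, adjusted p = 0.376). Per1, a clock gene that glucocorticoids induce, had a change of -1.04 (adjusted p = 0.357), Gadd45g, a stress-response gene, -0.81 (0.372), and Cdkn1a, the cell cycle inhibitor p21, -0.65 (0.330). The list's mean level was 7.85 to 8.16 in C3KO. In wt it was high in F4-1 (9.44) and F4-2 (9.15), while F4-3 (8.26) and F4-4 (8.30) stood close to C3KO. Its median was -0.52 without F4-1 and -0.81 without F4-3, and it was 0.21 in adult soleus and -0.70 in young quadriceps. In the circadian clock list 11 of 15 changes were positive, the median was 0.14 (0.02 without F4-4, 0.07 without J4-1 and 0.09 without H4-1) and no gene passed. Nfil3, a clock-linked repressor, had a change of -1.22 ± 0.47 (SE; limma, adjusted p = 0.377). The hour of tissue collection is not given in the sources used here.

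Most macrophage markers had lower levels in young C3KO soleus, but only Lgals3 among them passed. Of 18 tested, 17 changes were negative, 11 stood at an unadjusted p under 0.05, all lower, and the median was -0.62 against -0.04 for all genes. The mean level was 5.68 to 6.25 in C3KO and 6.49 to 6.56 in wt. On the adult soleus arrays of both genotypes it ran from 5.78 to 6.44, below every young wt level. C1qb, a subunit of complement C1q, stood at 6.38, 6.98 and 5.73 in C3KO and at 7.36, 7.26, 7.01 and 7.59 in wt (-0.94 ± 0.26 SE; limma, adjusted p = 0.1945). Cd68, a lysosomal protein of macrophages, stood at 4.71, 5.10 and 4.43 in C3KO and at 5.79, 5.68, 5.58 and 5.77 in wt (-0.96 ± 0.28 SE; limma, adjusted p = 0.199). C1qc had a change of -0.79 (adjusted p = 0.203). Other members, named after their values were seen, moved less or the other way. Adgre1 stood at 5.895, 5.683 and 5.72 in C3KO and within 5.633 to 6.027 in wt. Csf1r stood at 8.513, 8.663 and 8.298 in C3KO and within 8.425 to 9.035 in wt, so both overlapped. Ccr2 was higher, at 6.33, 6.339 and 6.601 in C3KO and within 6.171 to 6.258 in wt. The list's median was -0.61 with the actin covariate, -0.43 at the smallest when a mouse was left out (H4-1), -0.32 with H4-2 kept and -0.07 in adult soleus. H4-2, with its liver transcripts, had the highest mean level of these arrays, 6.91. Itgam and Cx3cr1, which mark monocytes and macrophages, were above the array median on none of the 7 arrays. In whole muscle, fewer cells of a type and less RNA per cell cannot be told apart.

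Connective tissue markers had smaller median changes with the actin covariate. The actin measure itself nearly separated the genotypes (0.0876 to 0.1985 in C3KO, 0.1695 to 0.487 in wt), so that fit cannot tell it apart from genotype. Of 9 tested tendon markers Cilp alone passed, 7 changes were negative and the median was -0.48, which became -0.13 with the actin covariate. Leaving out 1 mouse moved it to between -0.84 (J4-1) and -0.23 (H4-1), and it was -0.26 without F4-2 or F4-3. Thbs4, a matrix protein of tendon, stood at 9.87, 8.80 and 8.97 in C3KO and at 10.08, 10.30, 10.13 and 9.86 in wt, with J4-1 within the wt range (-0.88 ± 0.22 SE; limma, adjusted p = 0.136). Without J4-1 the adjusted p was 0.00926. Comp, a related matrix protein, had a change of -1.10 ± 0.29 (SE; limma, adjusted p = 0.158), and 0.0112 without J4-1. Of 16 tested matrix and fibroblast genes none passed, 15 changes were negative and the median of -0.32 became -0.003 with the covariate, -0.55 without J4-1 and -0.18 without H4-1. Lox, which cross-links collagen, had a change of -0.78 (limma, adjusted p = 0.273), Ccn2, a matrix growth regulator, -0.88 (0.324), and Postn, periostin, -0.74 (0.392). The matrix mean level ran from 8.19 to 9.02 in C3KO and from 8.84 to 9.09 in wt, so the groups overlapped.

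Of 5 tested adipocyte markers none passed, 4 changes were negative and the median was -0.81, with -0.55 when H4-2 was kept and -0.56 with the actin covariate. The mean level was 8.504 to 8.96 in C3KO and 9.16 to 9.76 in wt. Retn, the fat-cell secreted protein resistin, stood at 6.04, 6.33 and 5.91 in C3KO and at 7.09, 7.89, 6.78 and 6.84 in wt (-1.05 ± 0.31 SE; limma, adjusted p = 0.209). Adipoq, the fat hormone adiponectin, stood at 7.45, 8.18 and 6.79 in C3KO and at 8.70, 9.65, 8.80 and 9.24 in wt, with no overlap, but H4-2 stood at 9.34 (-1.62 ± 0.53 SE; limma, adjusted p = 0.273). Car3, a carbonic anhydrase of fat and slow muscle, had a change of 0.20 (adjusted p = 0.409). Of 9 tested endothelial markers none passed, and the median was -0.03. The lymphatic marker Lyve1, a receptor for hyaluronan, stood at 5.84, 5.99 and 5.401 in C3KO and at 7.47, 7.28, 6.62 and 6.496 in wt (-1.22 ± 0.31 SE; limma, adjusted p = 0.146), and H4-2 stood at 8.25. Vegfc stood at 7.79 on the H4-2 array, so that both genes were high there.

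**Figure D4:**
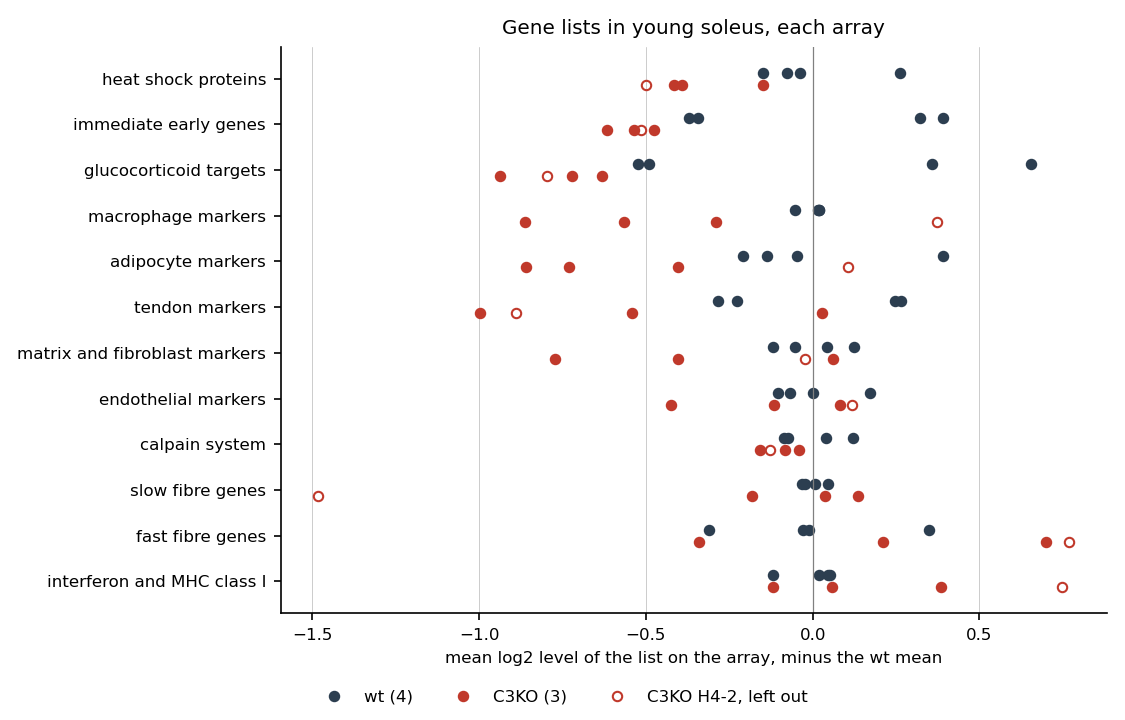
Mean log2 level of 12 gene lists on each young soleus array, drawn as the difference from the wt mean, with wt dark, C3KO red and the left-out H4-2 array hollow. The 3 C3KO arrays lie below the 4 wt arrays for the macrophage and glucocorticoid lists, while the slow fibre list overlaps.

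The contractile and calcium-handling programme of the muscle showed no gene that passed, apart from Capn3. For 12 tested slow fibre genes the median change was -0.01, and the mean level was 11.95 to 12.27 in C3KO and 12.10 to 12.18 in wt. For 13 tested fast fibre genes 12 changes were positive, with a median of 0.08, which was 0.005 without J4-1 and 0.11 without J4-2. Their mean level spread widely, from 12.39 to 13.43 in C3KO and from 12.42 to 13.08 in wt. Myh4, a fast myosin named after its values were seen, ran from 8.26 in wt F4-1 to 13.43 in C3KO J4-1. Of 27 tested Z-disc and sarcomere scaffold genes 17 changes were positive, with a median of 0.02. Of 18 tested genes of excitation-contraction coupling, the machinery that releases calcium at each twitch, 14 changes were positive and the median was 0.14, which fell to 0.03 with the actin covariate. Of 18 tested atrophy and autophagy genes 13 changes were negative and the median was -0.11. Foxo1, a transcription factor that drives atrophy genes, had a change of -0.58 ± 0.19 (SE; limma, adjusted p = 0.288). Of 13 tested regeneration and myogenesis genes 9 changes were negative, with a median of -0.15, which was -0.34 without J4-2, -0.29 without F4-1, -0.03 without F4-3, 0.01 without H4-1 and -0.07 with the actin covariate. For 16 tested interferon and MHC class I genes 13 changes were positive and the median was 0.09, which was -0.03 without J4-1, 0.06 without F4-2, 0.22 without H4-1 and 0.23 with H4-2 kept. Tap1, a peptide transporter for MHC class I, had a change of 0.31 ± 0.14 (SE; limma, adjusted p = 0.458). For these lists 0 genes passed with limma, and the numbers at an unadjusted p under 0.05 were 0 slow fibre, 0 fast fibre, 2 Z-disc, 1 coupling, 4 atrophy, 1 regeneration and 1 interferon. Among all genes tested 1163 of 11636 stood under that threshold.

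The difference between the young and the adult genotype effect in soleus passed for 32 genes (0.275%), 9 higher and 23 lower in the young effect. Of the 37 young soleus genes, 12 were among them, including Vegfc (2.47 ± 0.29 SE; limma, adjusted p = 0.0007519), Zfp30 (1.71, 0.01266), Sdc4 (2.08, 0.03026) and Blvrb (1.25, 0.0408). Hsph1 (-1.30, limma adjusted p = 0.009656), Dct (-2.04, 0.01158), Ndrg4 (-3.07, 0.01266), Lgals3 (-1.997, 0.01303) and Mrps12 (-1.17, 0.03476) were lower in the young effect. Of the differences named, 3 belong to genes that did not pass in young soleus. Alpk3, a muscle kinase-like protein of the sarcomere, stood at 10.96, 11.82 and 10.68 in young C3KO and at 11.87, 11.82, 12.07 and 12.01 in young wt (-0.79). In adult soleus its change was 1.84 (adjusted p = 0.001026), and the difference was -2.63 (limma, adjusted p = 0.009746). Acer2, an alkaline ceramidase of the Golgi, had -0.60 in young and 1.38 in adult soleus (difference -1.98; limma, adjusted p = 0.002173). Rgcc, a regulator of cell cycle entry, had -0.81 and 0.67 (difference -1.49; limma, adjusted p = 0.01266). Of 13 named differences, 6 kept their call without each young mouse in turn, namely Vegfc, Acer2, Hsph1, Alpk3, Dct and Zfp30. The adult arrays do not all carry the array code 1-3 of the young ones, and the shares differ between genotypes. With adults of code 1-3 only, 41 genes passed, 18 of them shared with the 32. Ndrg4, Lgals3 and Mrps12 (limma, adjusted p = 0.05236 each) and Blvrb (0.09975) were then lost. The count of 32 dropped to 9 without H4-1, 13 without F4-2, 18 without F4-1, 19 without J4-1 and 21 without J4-2.

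The difference between soleus and quadriceps was taken within each of the 7 young mice, so that each mouse is its own block. It passed for 4 genes (0.0344%), all lower in the soleus effect, with 680 at an unadjusted p under 0.05. The quadriceps values that follow are of these 7 mice, without H4-2. Ndrg4 had -2.001 in soleus and -0.03 in quadriceps, a within-mouse difference of -1.97 ± 0.24 (SE; limma, adjusted p = 0.02651). Nckap5, a Nck-associated protein, had -0.71 and 0.43 (difference -1.14, limma adjusted p = 0.03851). Mybph, a myosin-binding protein of fast muscle, had -0.30 and 1.04 (difference -1.34, limma adjusted p = 0.0309). Cd28, a costimulatory receptor on T cells, had -0.26 and 1.19 (difference -1.45, limma adjusted p = 0.0482). The count was 0 without J4-1, J4-2, F4-1 or F4-2 (801, 852, 536 and 870 genes at an unadjusted p under 0.05) and with H4-2 kept (553). It was 2 without F4-4 and 16 without F4-3.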

How the data were processed

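RNA was extracted with Trizol, labelled as biotinylated cRNA and hybridised to 1-colour arrays, per the labels' protocols. The authors deposited log2 values per probe set; MAS5 and RMA are named, per the submitters' processing notes, without their roles or versions. The deposited values were used without further scaling. Of 45101 probe sets, 34945 had 1 gene symbol, 932 several and 9160 none or no entry, and 64 were controls; 34741 of those with 1 symbol (99.4%) were matched by gene ID. A probe set was kept if it was above its array's median on at least 3 of the 7 arrays (19840 kept), and each gene is read from its brightest kept probe set, leaving 11636 genes. limma 3.58.1 (lmFit, eBayes; R 4.3.3) fitted the 4 soleus groups together (18 arrays), the 4 quadriceps groups (21 arrays) and, for the muscle difference, within-mouse soleus minus quadriceps values, in which the mouse is the pair. The 4 soleus groups share 1 estimate of spread. Tests are two-sided with Benjamini-Hochberg adjustment over all genes in each of 5 comparisons, at 0.05. Mice are the replicates, and the number of arrays limits the precision. The limma fits for young soleus, the age difference and the muscle difference were tested on simulated data.

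Named genes are those that passed, up to the 20 largest in each direction, the members of a described list that passed with up to 4 others of smallest p, and up to 10 per difference. The members and the 37 gene lists (567 genes, 22 lists described) were chosen with earlier results of these data known, and no list was tested. Alternatives changed the scaling, the filter, the choice of probe set, the fit, the arrays used and each mouse in turn.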

Additional observations from a re-analysis of the deposited data

Results flagged for a closer look

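The median of the liver markers on the soleus array of C3KO mouse H4-2 was 11.95, far from the other young C3KO soleus arrays. That array had been left out for its liver transcripts, so this flag was fixed in advance. Among wt young soleus levels, Rab4a in F4-3 (6.42), Tmem69 in F4-3 (6.23) and Cdh22 in F4-1 (6.19) stood far from the other 3 mice. These 3 came from 33 checks, and chance marks about 1 group in 20. The 33 include the liver markers and hold Capn3 more than once.

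The genotype effect differed between young and adult soleus, by the tests given above, for genes of several kinds. It was higher in the young for the lymphatic growth factor Vegfc (2.47), Sdc4 (2.08), Zfp30 (1.71) and Blvrb (1.25). It was lower in the young for Ndrg4 (-3.07), Alpk3 (-2.63), Dct (-2.04), Lgals3 (-1.997), Acer2 (-1.98), Rgcc (-1.49), Hsph1 (-1.30), Mrps12 (-1.17) and Abcg2 (-0.84). Without H4-1 the differences of Rgcc, Ndrg4, Lgals3, Abcg2, Blvrb and Mrps12 did not pass. With adults of array code 1-3 only, those of Ndrg4, Lgals3, Blvrb and Mrps12 did not pass. Over the 7 fits without a mouse, Blvrb was lost in 6, Mrps12 in 4 and Sdc4 in 3 (without J4-1, J4-2 or F4-1). With H4-2 kept the difference of Abcg2 was -0.45 (limma, adjusted p = 0.5464). The genotype effect differed between soleus and quadriceps of the young mice for Ndrg4 (-1.97), Cd28 (-1.45), Mybph (-1.34) and Nckap5 (-1.14).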

How the results depend on the processing

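Of 662 values of the 37 genes named among the 38, over all alternatives, 534 kept their direction and side of the threshold, 128 lost the call and 0 reversed. No alternative read another probe set of a gene by itself. Read that way, a probe set of Sdc4 (-1.72), Tmem69 (-0.52), Serinc3 (0.08) and Adal (0.03), among others, had the opposite direction. The second probe sets of Hsph1 (-1.15) and Ndrg4 (-2.29), among others, kept it. Of these 37, 19 kept the call without each mouse in turn and 16 under every alternative. Sdc4, Tmem69, Zfp106, Mga, Mpped2, Adal, Chid1 and Ctsa lost the call with probe sets averaged. Tmem69, Zfp106, Ndrg4, Cilp, Lgals3, Efhd2, Pdzd3, Sec23b, Gmds, Plekhj1 and Abcg2 lost it with the actin covariate, and Tmem69, Zfp106, Lgals3, Efhd2, Sec23b, Ctsa and Abcg2 with H4-2 kept. Tmem69, Zfp106, Mga, Efhd2, Pdzd3, Chid1, Alkbh6, Sec23b, Ctsa, Plekhj1 and Abcg2 lost it when the young groups were fitted alone. Ndrg4, Pdzd3 and Ctsa lost it with adults of array code 1-3 only, Efhd2, Pdzd3, Ctsa, Gmds, Plekhj1 and Abcg2 with median centring, Efhd2, Ctsa and Abcg2 with quantile normalization, Pdzd3 without the filter and Ndrg4 with a trended, robust prior. Hspa4l, C1qb, C1qc, Thbs4 and Rgcc passed in young soleus with array weights. The count of genes that passed in young soleus ranged from 23 to 43 without 1 mouse and was 101 with array weights, 38 of them shared with the 38 reported. The age difference ranged from 9 to 41 without 1 mouse, the muscle difference from 0 to 16, and the count near Capn3 from 5 to 8, with 13 near Capn3 under array weights. The muscle difference passed for 0 genes with H4-2 kept. That comparison is paired by mouse, and with no replicate block it passed for 3 genes, 2 of them shared. In young quadriceps, leaving out H4-2, an alternative chosen after seeing the data, gave 66 genes against 97. The cause of these moves was not tested. Genes dim in 1 group, such as Tmem87a, Cap1 and Dct, limit the size of their changes to a bound.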
